A study of Mus musculus with 30 samples.

Results

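The SLC25 family, the mitochondrial solute carriers, was followed in heart RNA as the rows of the deposited table whose gene symbol starts with Slc25a, leaving out Slc25a20. The rule gave 36 genes of 13575 in the table, and all 36 passed the filter of a mean of at least 0.5 FPKM (fragments scaled to transcript length and to library size). Every gene of the table reaches 1.00 FPKM in some library, so few could fail that filter. RefSeq holds 47 protein-coding genes with an Slc25a symbol, and shares of the family below are shares of the 36. The RNA came from 3 hearts or heart samples labelled CM-RevDKO, which lack both REV-ERB receptors in heart muscle cells by design, and from 3 labelled as floxed controls. Libraries are called CM-RevDKO or control below by these labels alone. Both groups were 2 months old and collected at ZT10, in zeitgeber time counted from lights on, with the atria trimmed. The labels' protocol for the ChIP hearts of the same series names floxed alleles of Rev-erba and Rev-erbb in all mice and aMHC-Cre, driven by the alpha myosin heavy chain promoter of heart muscle, as present or absent. If the RNA hearts were bred the same way, the effect of Cre itself and the loss of the receptors cannot be told apart. Sex is not given for the RNA samples, and nothing says that replicates came from separate mice, so p-values measure the spread between these samples.

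SLC25 carriers sit in the inner mitochondrial membrane, with a few members in other membranes, and move substrates between the cytosol and the matrix, mostly by exchange. They bring ADP and phosphate to ATP synthase and send ATP out, pass reducing equivalents inward through the malate-aspartate shuttle, and supply the matrix with cofactors, nucleotides, amino acids and iron. The heart depends on the ADP/ATP carrier in particular, because its contractile work is fuelled mainly by mitochondrial ATP. REV-ERBs are clock-controlled repressors that bind DNA at sites shared with the ROR activators.

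In the libraries labelled CM-RevDKO, 4 of the 36 carriers fell and none rose. These were Slc25a33, a carrier of pyrimidine nucleotides, Slc25a34, whose substrate is not settled, Slc25a42, a carrier of coenzyme A, and Slc25a13, the aspartate/glutamate carrier also called citrin. The 4 are 11.1% of the family. Over all 13256 genes tested, 1.24% fell and 1.26% rose, by limma with Benjamini-Hochberg adjustment at 0.05. The most abundant carrier, Slc25a4, had higher values in every library labelled CM-RevDKO and did not pass the test. The family's median log2 fold change was -0.07, against 0.02 over all genes tested. Among the carriers, 24 had a negative and 12 a positive value, while 53.7% of all genes were positive. No CM-RevDKO value fell within the control range for 12 carriers, 8 lower and 4 higher, which is 33.3% of the family against 23.1% of all genes. Of the background genes, 10.5% were lower and 12.6% higher without overlap. Of all genes tested 332 were called, 167 higher and 165 lower. That split was 118 higher and 212 lower when the values were rescaled without the mitochondrially encoded genes, and the same 4 carriers were called. The count of carriers called was 1 to 3 with single libraries left out, 2 with limma's eBayes without a trend and 0 with the atrial markers as a covariate. The covariate was the mean of log2(FPKM + 1) over the atrial markers, whose sums differ between the groups without overlap and also vary within them. Marker and group effects can thus be separated only in part in that last fit. In it the log2 fold changes were -0.93 for Slc25a33, -0.81 for Slc25a34, -0.67 for Slc25a42 and -0.58 for Slc25a13.

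The promoters of the 4 carriers that passed the test are shown because the study concerns REV-ERB and the D-box factor E4BP4. Whether the 4 share a regulator was not tested. The windows run from 250 bases before to 50 after a RefSeq transcript start, in build GRCm38.p6, 5′ to 3′ on the gene's strand, which is the minus strand for all 4. That of Slc25a33 lies at chr4:149774218-149774517, that of Slc25a34 at chr4:141623785-141624084, that of Slc25a13 at chr6:6217124-6217423 and that of Slc25a42 at chr8:70212232-70212531. Capitals mark matches, on either strand, to the nuclear receptor half-site AGGTCA, its extension TAGGTCA, the E-box CACGTG, the D-boxes TTATGTAA and TTACGTAA, and CGCATGCG, the core of the NRF-1 site.
Slc25a33: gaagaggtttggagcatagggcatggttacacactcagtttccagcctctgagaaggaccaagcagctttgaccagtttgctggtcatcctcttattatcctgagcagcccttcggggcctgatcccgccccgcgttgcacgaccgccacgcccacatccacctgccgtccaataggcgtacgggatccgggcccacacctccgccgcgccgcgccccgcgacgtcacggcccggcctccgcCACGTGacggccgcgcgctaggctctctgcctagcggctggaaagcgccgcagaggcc
Slc25a34: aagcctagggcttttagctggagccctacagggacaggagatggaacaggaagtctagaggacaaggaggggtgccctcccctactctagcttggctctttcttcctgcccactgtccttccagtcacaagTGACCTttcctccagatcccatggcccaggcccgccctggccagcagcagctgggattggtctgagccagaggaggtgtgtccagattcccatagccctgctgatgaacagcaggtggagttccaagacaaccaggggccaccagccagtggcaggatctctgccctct
Slc25a13: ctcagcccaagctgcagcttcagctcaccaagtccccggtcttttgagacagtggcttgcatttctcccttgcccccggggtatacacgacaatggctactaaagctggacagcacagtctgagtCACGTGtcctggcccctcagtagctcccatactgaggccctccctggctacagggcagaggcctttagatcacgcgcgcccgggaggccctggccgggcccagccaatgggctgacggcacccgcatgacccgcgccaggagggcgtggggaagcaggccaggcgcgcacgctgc
Slc25a42: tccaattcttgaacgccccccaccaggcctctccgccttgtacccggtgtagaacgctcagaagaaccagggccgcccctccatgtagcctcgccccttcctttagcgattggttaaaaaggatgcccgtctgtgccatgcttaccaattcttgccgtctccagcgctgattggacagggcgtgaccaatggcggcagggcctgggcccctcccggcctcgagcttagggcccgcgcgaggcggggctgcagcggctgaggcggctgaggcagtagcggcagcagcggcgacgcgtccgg

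The Slc25a33 window holds an E-box that begins 8 bases before the start, and the Slc25a13 window holds one that begins 125 bases before it. Slc25a34 has a half-site on the opposite strand, 119 bases before the start, and Slc25a42 has none of these letters. Of the 36 carriers, 28 had a promoter entry. An E-box was found in 6 of the 28, against 11.8% of 8618 tested genes with an entry. The half-site, which TAGGTCA contains, was found in 4 of the 28, against 14.8% of tested genes. TAGGTCA, TTATGTAA, TTACGTAA and CGCATGCG were found in no carrier window, against 2.19%, 0.650%, 0.209% and 4.36% of tested genes. A match is a description of the letters only, and binding was not analysed here.

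Before the carriers, the genes targeted in the knockout were read in each library. Nr1d1, which encodes REV-ERBα, stood at 55.6, 47.4 and 47.9 FPKM in libraries labelled CM-RevDKO and at 23.9, 22.6 and 15.0 FPKM in those labelled control. Nr1d2, which encodes REV-ERBβ, stood at 28.8, 26.6 and 26.7 FPKM against 40.3, 30.6 and 36.3 FPKM. Nr1d1 was thus higher where the label gives a knockout. Whether the deleted exons enter these values is not stated in the labels, so the genes do not check the labels and every direction rests on them. Summed markers of heart muscle stood at 24932 to 28012 FPKM in libraries labelled CM-RevDKO and 25181 to 27235 FPKM in those labelled control. These sums overlapped, but single markers shifted in opposite directions. Tnnt2 and Myl2 were higher and Pln, Myh6 and Tnni3 lower without overlap, and none of the 7 markers passed the test. The sum of 5 atrial markers was 675, 175 and 209 FPKM in libraries labelled CM-RevDKO and 124, 65.2 and 114 FPKM in controls, without overlap. Of these 5, Bmp10 was listed at 0 in every library but CM-RevDKO replicate 1, where it stood at 1.94 FPKM. In bulk tissue, fewer cells of a type and less RNA per cell cannot be told apart. CM-RevDKO replicates 1 and 2 also stood apart in 1 mitochondrial transcript, since their mt-Atp8 levels were 18989 and 19303 FPKM while the other 4 libraries spanned 8032 to 9769 FPKM. All mitochondrially encoded genes together made up 38.3%, 40.9% and 36.9% of the summed values in CM-RevDKO libraries. In controls they made up 39.9%, 38.4% and 41.0%, so that share did not set CM-RevDKO replicates 1 and 2 apart. Sequencing depth is unknown, and the values of a library sum to 678722 to 712158 FPKM.

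The cofactor and nucleotide carriers, 8 in all, held 2 of the 4 falls, with the largest of the family among them, beside the 1.24% of all genes that fell. Their median log2 fold change was -0.057, against -0.071 for the family, so the class as a whole was not lower than the family. Slc25a33 (ENSMUSG00000028982, chromosome 4, 149744036 to 149774267, GRCm38.p6) supplies the matrix with pyrimidine nucleotides, the building blocks of mitochondrial DNA and RNA. Its values were 6.52, 7.19 and 7.28 FPKM in libraries labelled CM-RevDKO, against 14.8, 13.0 and 15.9 FPKM in controls. Every CM-RevDKO library was below every control library. The mean was 7.00 ± 0.419 FPKM in CM-RevDKO libraries and 14.6 ± 1.46 FPKM in controls (SD, n = 3 each), 0.481 times the control level. The log2 fold change of log2(FPKM + 1) was -0.96 (SE 0.11, limma adjusted p = 0.00517). The call held with each of the 6 libraries left out in turn (adjusted p of 0.0151 to 0.0363). It ended with CM-RevDKO replicate 3 alone against the controls (log2 fold change -0.90, adjusted p = 0.160), a fit in which the spread comes from the 3 controls only and the lone library is assumed to vary like them, and with the atrial markers as a covariate (log2 fold change -0.93, adjusted p = 0.0907).

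Slc25a36, the other pyrimidine nucleotide carrier of the table, did not pass the test (adjusted p = 0.999). Its means were 13.2 ± 1.39 FPKM in CM-RevDKO libraries and 13.4 ± 3.06 FPKM in controls (SD, n = 3 each), and the groups overlapped. Within a library, Slc25a33 stood at 0.560, 0.525 and 0.511 times Slc25a36 in CM-RevDKO libraries and at 0.929, 0.909 and 1.59 times in controls. This ratio was lower in all 3 CM-RevDKO libraries. It and the carrier ratios that follow were chosen after values were seen and are given with no test.

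Slc25a42 (ENSMUSG00000002346, chromosome 8, 70184340 to 70212281) carries coenzyme A into the matrix in exchange for adenine nucleotides. It stood at 15.2, 14.9 and 14.1 FPKM in CM-RevDKO libraries, against 23.2, 20.0 and 23.6 FPKM in controls. The groups did not overlap, and the CM-RevDKO libraries lay close together. The log2 fold change was -0.57 (SE 0.10, limma adjusted p = 0.0327), 0.660 times the control mean. The call held without control replicate 2 and ended without any other single library (adjusted p of 0.0687 to 0.124) and without a trend in eBayes (adjusted p = 0.0549), while the log2 fold change stayed between -0.67 and -0.52 over all 17 alternatives. With the atrial covariate the log2 fold change was -0.67 (adjusted p = 0.156), and with CM-RevDKO replicate 3 alone it was -0.62 (adjusted p = 0.270).

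Slc25a16, also linked to coenzyme A in mitochondria, averaged 9.59 ± 0.0933 FPKM in CM-RevDKO libraries and 10.3 ± 0.519 FPKM in controls (SD, n = 3 each, adjusted p = 0.674), without overlap. The ratio of Slc25a42 to Slc25a16 was 1.56, 1.56 and 1.48 in CM-RevDKO libraries, against 2.14, 2.02 and 2.35 in controls. Of 10 tested genes for making coenzyme A and other matrix cofactors, 1 fell and none rose, which is a single call beside the 1.24% of all genes that fell. That gene was Pank1, pantothenate kinase, which catalyses the first step from pantothenate to coenzyme A. It stood at 9.00, 8.88 and 8.38 FPKM in CM-RevDKO libraries and at 14.7, 13.5 and 12.9 FPKM in controls (log2 fold change -0.59, SE 0.09, adjusted p = 0.0234). The Pank1 call ended with any of the 6 libraries left out (adjusted p of 0.0531 to 0.0990) and with the atrial covariate (adjusted p = 0.171). The list's median log2 fold change was -0.14.

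The other cofactor carriers did not pass the test. They included Slc25a17, a peroxisomal carrier of cofactors such as CoA and FAD, Slc25a26 for S-adenosylmethionine, and Slc25a32 for folate or FAD. Slc25a26 was at 10.2 FPKM in CM-RevDKO libraries and 8.96 FPKM in controls, without overlap (adjusted p = 0.476). It overlaps Lrig1 in the annotation, and reads of a shared stretch could be split between them. The means of Slc25a17 and Slc25a32 were 7.95 and 2.68 FPKM in CM-RevDKO libraries and 8.07 and 3.32 FPKM in controls. The mitochondrial NAD carrier Slc25a51 is listed in the table as Mcart1 and so lies outside the rule. By its gene ID it averaged 11.3 ± 3.76 FPKM in CM-RevDKO libraries and 12.0 ± 4.13 FPKM in controls (SD, n = 3 each, adjusted p = 0.928), and another row carries the same symbol.

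**Figure D1:**
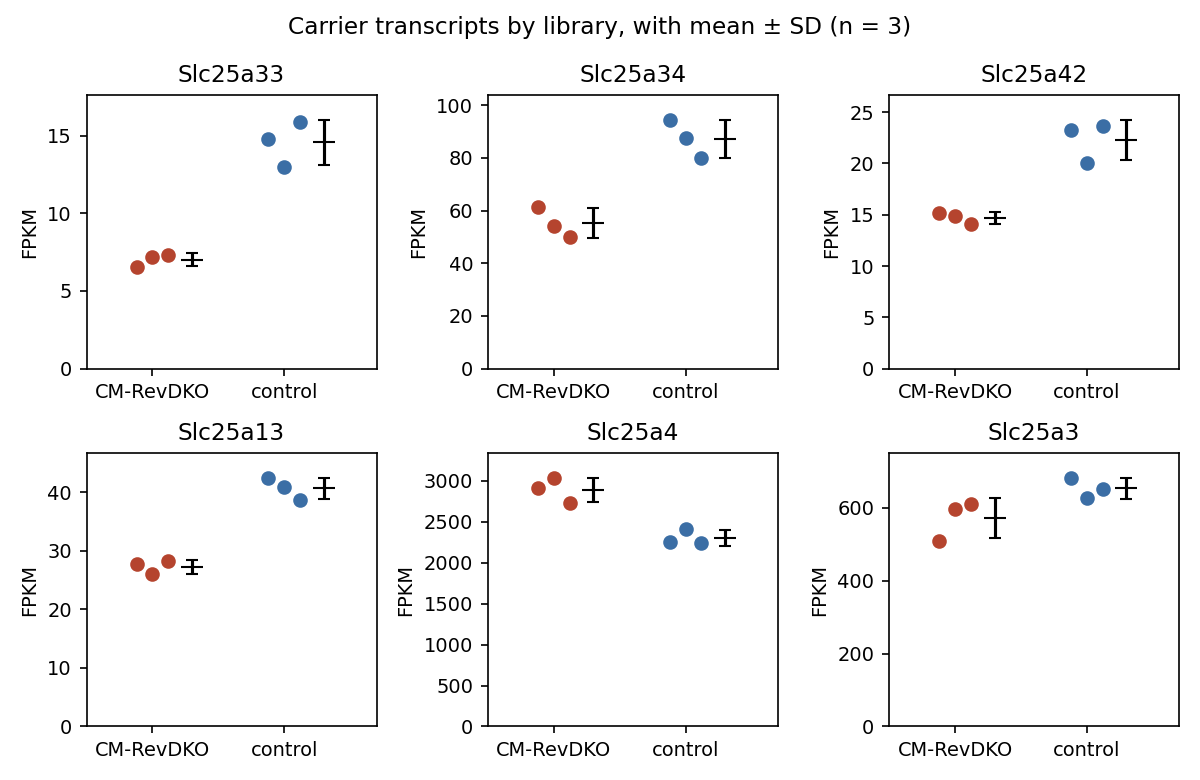
FPKM of 6 carriers in each library, with CM-RevDKO libraries in red at left and control libraries in blue at right, and the mean ± SD (n = 3) as black bars. Slc25a33, Slc25a34, Slc25a42 and Slc25a13 lie lower in all 3 CM-RevDKO libraries, while Slc25a4 lies higher and Slc25a3 lower without passing the test.

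Among carriers of di- and tricarboxylates and the malate-aspartate shuttle, 1 of 5 fell, a single call beside the 1.24% of all genes that fell. The shuttle carries the reducing power of cytosolic NADH into the matrix through aspartate, glutamate, malate and oxoglutarate. Slc25a13 (ENSMUSG00000015112, chromosome 6, 6041218 to 6217304), a calcium-regulated aspartate/glutamate carrier, stood at 27.7, 26.0 and 28.3 FPKM in CM-RevDKO libraries. The control libraries stood at 42.4, 40.9 and 38.7 FPKM, all above them. The log2 fold change was -0.56 (SE 0.09, limma adjusted p = 0.0211), and the CM-RevDKO mean was 0.672 times the control mean. The call held without CM-RevDKO replicate 1 or 3 and ended without CM-RevDKO replicate 2 or any 1 control library (adjusted p of 0.0652 to 0.101). It was -0.58 with the atrial covariate (adjusted p = 0.178) and -0.51 with CM-RevDKO replicate 3 alone (adjusted p = 0.270).

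Slc25a12, also called aralar, is the other aspartate/glutamate carrier and the form known for excitable tissues. It stood at 26.6, 25.0 and 24.6 FPKM in CM-RevDKO libraries and at 26.8, 29.5 and 28.9 FPKM in controls. All CM-RevDKO values were the lower ones, but the log2 fold change of -0.15 (SE 0.09) did not pass the test (adjusted p = 0.431). Slc25a13 was 1.04, 1.04 and 1.15 times Slc25a12 in CM-RevDKO libraries, against 1.58, 1.38 and 1.34 times in controls. The transcripts of both carriers, compared per length, were thus nearer to equal in every CM-RevDKO library.

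The oxoglutarate/malate carrier Slc25a11, the shuttle's other carrier, stood at 213, 234 and 232 FPKM in CM-RevDKO libraries and at 209, 217 and 221 FPKM in controls. The groups overlapped, and the log2 fold change of 0.07 (SE 0.08) was -0.02 with quantile normalization and -0.00298 when rescaled without mitochondrially encoded genes. Its gene overlaps Rnf167. Slc25a1, the citrate carrier, stood at 6.50, 5.47 and 4.48 FPKM in CM-RevDKO libraries, against 4.62, 4.17 and 3.91 FPKM in controls (log2 fold change 0.30, SE 0.14, adjusted p = 0.334). The lowest CM-RevDKO library lay within the control range. Slc25a10, the dicarboxylate carrier, averaged 6.87 FPKM in CM-RevDKO libraries and 5.94 FPKM in controls (adjusted p = 0.495). Adipocyte markers, 7 of 8 of which are in the table, summed to 20.0 to 116 FPKM in CM-RevDKO libraries, highest in replicate 1, and to 15.0 to 23.9 FPKM in controls, and their part in the Slc25a1 and Slc25a10 values was not tested. Of 7 enzymes of the NADH shuttles, none passed the test, and Mdh2, mitochondrial malate dehydrogenase, had the smallest p, with 592 ± 6.15 FPKM in CM-RevDKO libraries and 516 ± 16.4 FPKM in controls (SD, n = 3 each, limma adjusted p = 0.249).

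Slc25a34 (ENSMUSG00000040740, chromosome 4, 141618819 to 141623891) was the fifth most abundant carrier, and its transported substrate is not settled. It stood at 61.3, 54.1 and 50.1 FPKM in CM-RevDKO libraries, against 94.3, 87.7 and 79.9 FPKM in controls. No CM-RevDKO library reached the lowest control. The log2 fold change was -0.65 (SE 0.11, limma adjusted p = 0.0283), 0.632 times the control mean. The call held without CM-RevDKO replicate 1 and ended without any other single library (adjusted p of 0.0584 to 0.116) and without a trend in eBayes (adjusted p = 0.0517). The atrial covariate gave -0.81 (adjusted p = 0.0907), and CM-RevDKO replicate 3 alone gave -0.79 (adjusted p = 0.141).

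Other carriers without a settled substrate, or with another role, did not pass the test. They were Slc25a35, Slc25a45, Slc25a46, which acts at the outer membrane in mitochondrial dynamics, and Slc25a47. Slc25a46 averaged 13.2 FPKM in CM-RevDKO libraries and 13.8 FPKM in controls. Slc25a35, a close relative of Slc25a34, averaged 4.40 ± 0.478 FPKM in CM-RevDKO libraries and 3.75 ± 0.460 FPKM in controls (SD, n = 3 each, adjusted p = 0.502), with an annotated overlap with Rangrf. Slc25a45 and Slc25a47 were low, at 1.60 and 1.62 FPKM in CM-RevDKO libraries and 1.45 and 2.04 FPKM in controls.

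**Figure D2:**
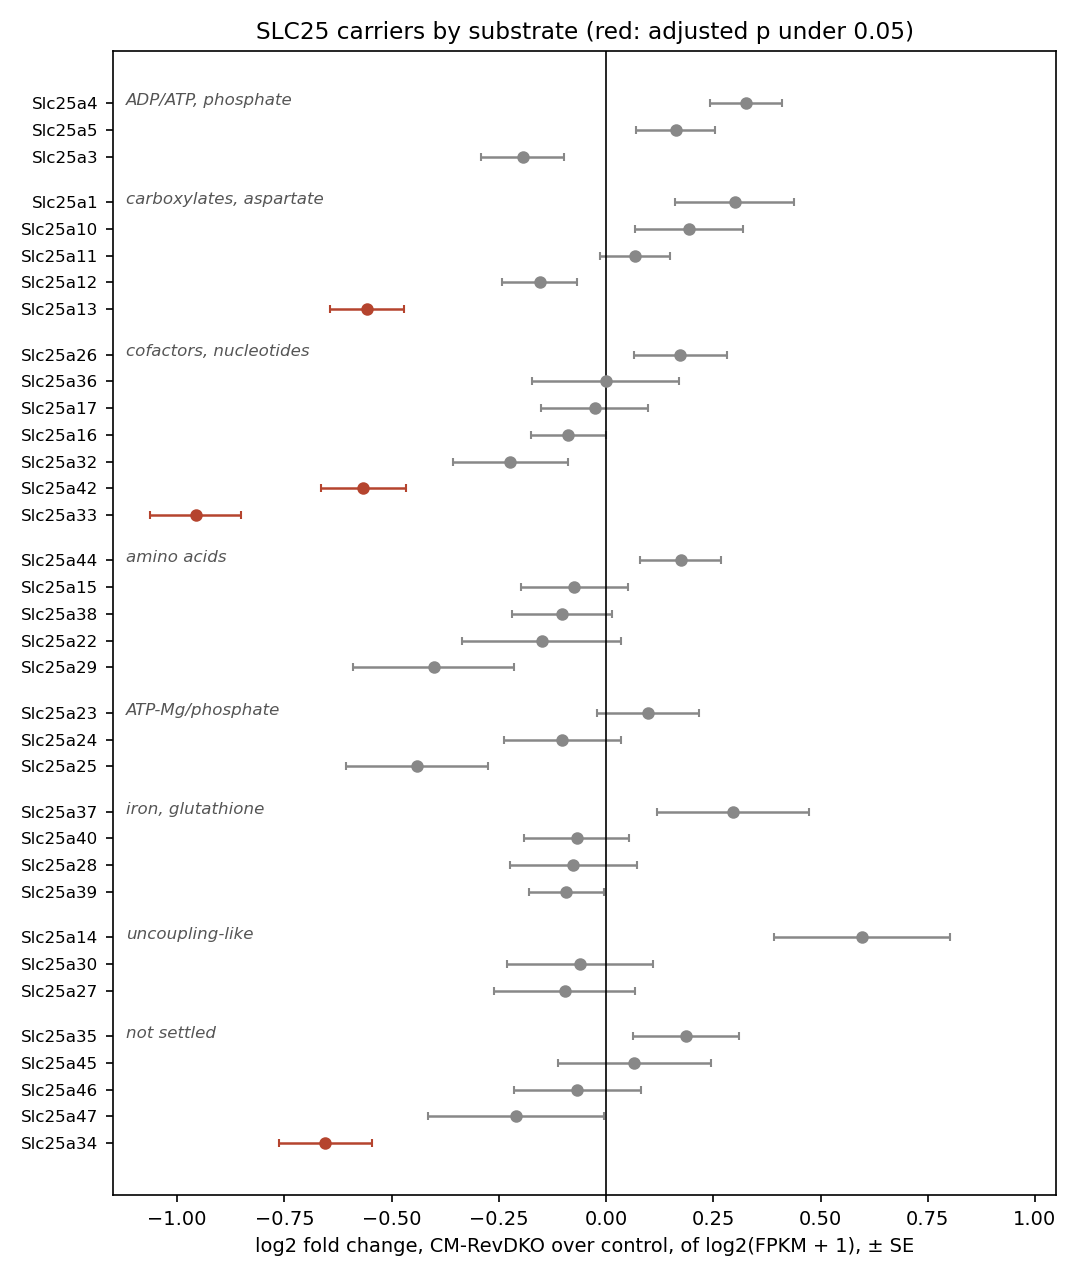
Log2 fold change of log2(FPKM + 1), CM-RevDKO over control, for 35 of the 36 carriers by substrate, with bars for ± 1 SE (n = 3 each). Red points passed the test at an adjusted p under 0.05, namely Slc25a33 at -0.96, Slc25a34 at -0.65, Slc25a42 at -0.57 and Slc25a13 at -0.56.

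The carriers of ADP/ATP and phosphate made up most of the family's RNA, and none of the 3 passed the test. Slc25a4, or ANT1, the ADP/ATP carrier of heart and muscle (ENSMUSG00000031633, chromosome 8, 46207168 to 46211062), was the most abundant. It stood at 2909, 3029 and 2734 FPKM in CM-RevDKO libraries, against 2256, 2416 and 2241 FPKM in controls. All CM-RevDKO values were above all control values. The mean was 2891 ± 148 FPKM in CM-RevDKO libraries and 2305 ± 97.0 FPKM in controls (SD, n = 3 each). The log2 fold change of 0.33 (SE 0.08) did not pass the test (limma adjusted p = 0.103), and under the alternatives it ranged from 0.25 to 0.37.

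Slc25a5, or ANT2, the form of dividing and many other cells, stood at 174, 179 and 184 FPKM in CM-RevDKO libraries and at 147, 159 and 175 FPKM in controls. The highest control reached the lowest CM-RevDKO library, and the log2 fold change was 0.16 (SE 0.09, adjusted p = 0.432). A pseudogene, Slc25a5-ps, is annotated, so reads could be split. Per length, Slc25a4 was 16.7, 17.0 and 14.9 times Slc25a5 in CM-RevDKO libraries and 15.3, 15.2 and 12.8 times in controls, and these ratios overlapped. Slc25a3, the phosphate carrier, which also carries copper, stood at 509.9, 596 and 610.0 FPKM in CM-RevDKO libraries. Its controls stood at 683, 626 and 651 FPKM, all above them. The log2 fold change of -0.19 (SE 0.10) did not pass the test (adjusted p = 0.371).

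Summed over the 36 carriers, the libraries labelled CM-RevDKO held 4156, 4371 and 4094 FPKM and the controls 3715, 3822 and 3685 FPKM. Slc25a4 alone made up 70.0%, 69.3% and 66.8% of this sum in CM-RevDKO libraries, against 60.7%, 63.2% and 60.8% in controls. Without Slc25a4 the order was the opposite, with 1247, 1343 and 1360.0 FPKM in CM-RevDKO libraries and 1458, 1406 and 1444 FPKM in controls. Each of these 3 measures separated the groups without overlap. They are given as values with no test. The largest part of the sum without Slc25a4 was Slc25a3, with means of 572 FPKM in CM-RevDKO libraries and 653 FPKM in controls. Slc25a11 and Slc25a5, the next in level, had the higher means in CM-RevDKO libraries, so that sum does not describe every carrier in it.

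**Figure D3:**
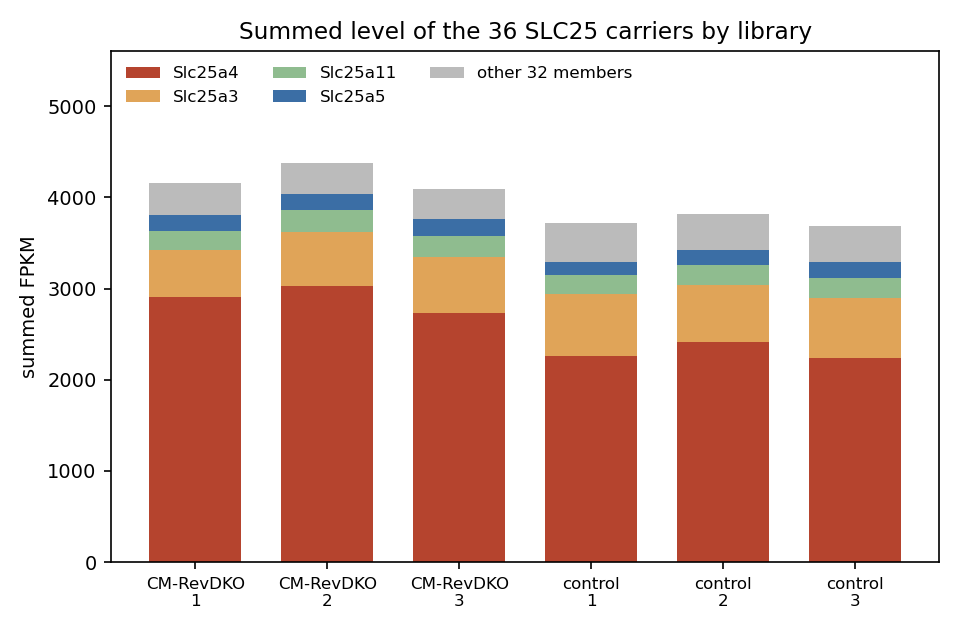
Summed FPKM of the 36 carriers in each library, CM-RevDKO at left and control at right, stacked from Slc25a4 at the bottom through Slc25a3, Slc25a11 and Slc25a5 to the other members. The CM-RevDKO columns reach 4094 to 4371 FPKM and the control columns 3685 to 3822 FPKM, and Slc25a4 fills 66.8% to 70.0% and 60.7% to 63.2% of them.

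Calcium-regulated ATP-Mg/phosphate carriers adjust the matrix pool of adenine nucleotides, and none of 3 passed the test. Slc25a23, the most abundant of them, stood at 16.7, 14.9 and 19.5 FPKM in CM-RevDKO libraries and at 17.0, 15.4 and 14.9 FPKM in controls (adjusted p = 0.733). Slc25a25 stood at 2.01, 1.48 and 1.17 FPKM in CM-RevDKO libraries and at 2.01, 2.74 and 2.59 FPKM in controls. Its highest CM-RevDKO library lay just under the lowest control, and the log2 fold change of -0.44 (SE 0.17) had an adjusted p of 0.243. Slc25a24 averaged 2.48 FPKM in CM-RevDKO libraries and 2.72 FPKM in controls.

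Of 5 amino acid carriers none passed the test. Slc25a29, a carrier of basic amino acids, stood at 2.87, 3.49 and 4.17 FPKM in CM-RevDKO libraries and at 3.76, 6.46 and 4.83 FPKM in controls. The groups overlapped (log2 fold change -0.40, SE 0.19, adjusted p = 0.338). Slc25a44, a carrier of branched-chain amino acids, averaged 5.94 ± 0.319 FPKM in CM-RevDKO libraries and 5.14 ± 0.196 FPKM in controls (SD, n = 3 each, adjusted p = 0.411), without overlap. Slc25a22 for glutamate, Slc25a38 for glycine, the starting point of heme, and Slc25a15 for ornithine overlapped between groups. Their means were 12.1, 9.20 and 3.33 FPKM in CM-RevDKO libraries and 13.3, 9.92 and 3.54 FPKM in controls.

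None of the 4 iron and glutathione carriers passed the test, and in each the groups overlapped. Slc25a39, which carries glutathione, stood at 39.3, 42.6 and 38.0 FPKM in CM-RevDKO libraries and at 41.7, 41.8 and 44.5 FPKM in controls (adjusted p = 0.650). Its relative Slc25a40 averaged 2.86 FPKM in CM-RevDKO libraries and 3.04 FPKM in controls. Mitoferrin 2, Slc25a28, brings iron into the matrix in many tissues and averaged 13.4 FPKM in CM-RevDKO libraries and 14.2 FPKM in controls. Mitoferrin 1, Slc25a37, is the form of red cell precursors and averaged 4.69 FPKM in CM-RevDKO libraries and 3.67 FPKM in controls (adjusted p = 0.455). Erythroid markers, 5 of 10 of which are in the table, summed to 8703 to 11003 FPKM in CM-RevDKO libraries and 5010 to 9005 FPKM in controls, and their part in the Slc25a37 values was not tested. Of 10 genes of mitochondrial iron and heme handling none passed, and Nfs1, the cysteine desulfurase of iron-sulfur cluster assembly, had the smallest p (45.4 FPKM in CM-RevDKO libraries, 39.4 FPKM in controls, adjusted p = 0.316).

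The uncoupling-like carriers were among the lowest of the family. Slc25a14, also called UCP5, stood at 2.03, 1.44 and 1.90 FPKM in CM-RevDKO libraries and at 0.693, 0.527 and 1.39 FPKM in controls. The groups were separated only narrowly, by control replicate 3, and the log2 fold change of 0.60 (SE 0.21) did not pass the test (adjusted p = 0.202). Slc25a27, or UCP4, and Slc25a30 averaged 1.37 and 2.50 FPKM in CM-RevDKO libraries and 1.53 and 2.66 FPKM in controls. Carriers of the same family under other symbols gave no call in 7 rows. Ucp2 had the smallest p, with 30.5 ± 4.89 FPKM in CM-RevDKO libraries and 22.5 ± 3.22 FPKM in controls (SD, n = 3 each, limma adjusted p = 0.209). Ucp3, the muscle uncoupling protein, stood at 14.5, 3.78 and 6.36 FPKM in CM-RevDKO libraries and at 34.0, 8.35 and 16.7 FPKM in controls, chosen after its values were seen. Its spread within each group was wide (log2 fold change -1.14, SE 0.55, adjusted p = 0.354).

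**Figure D4:**
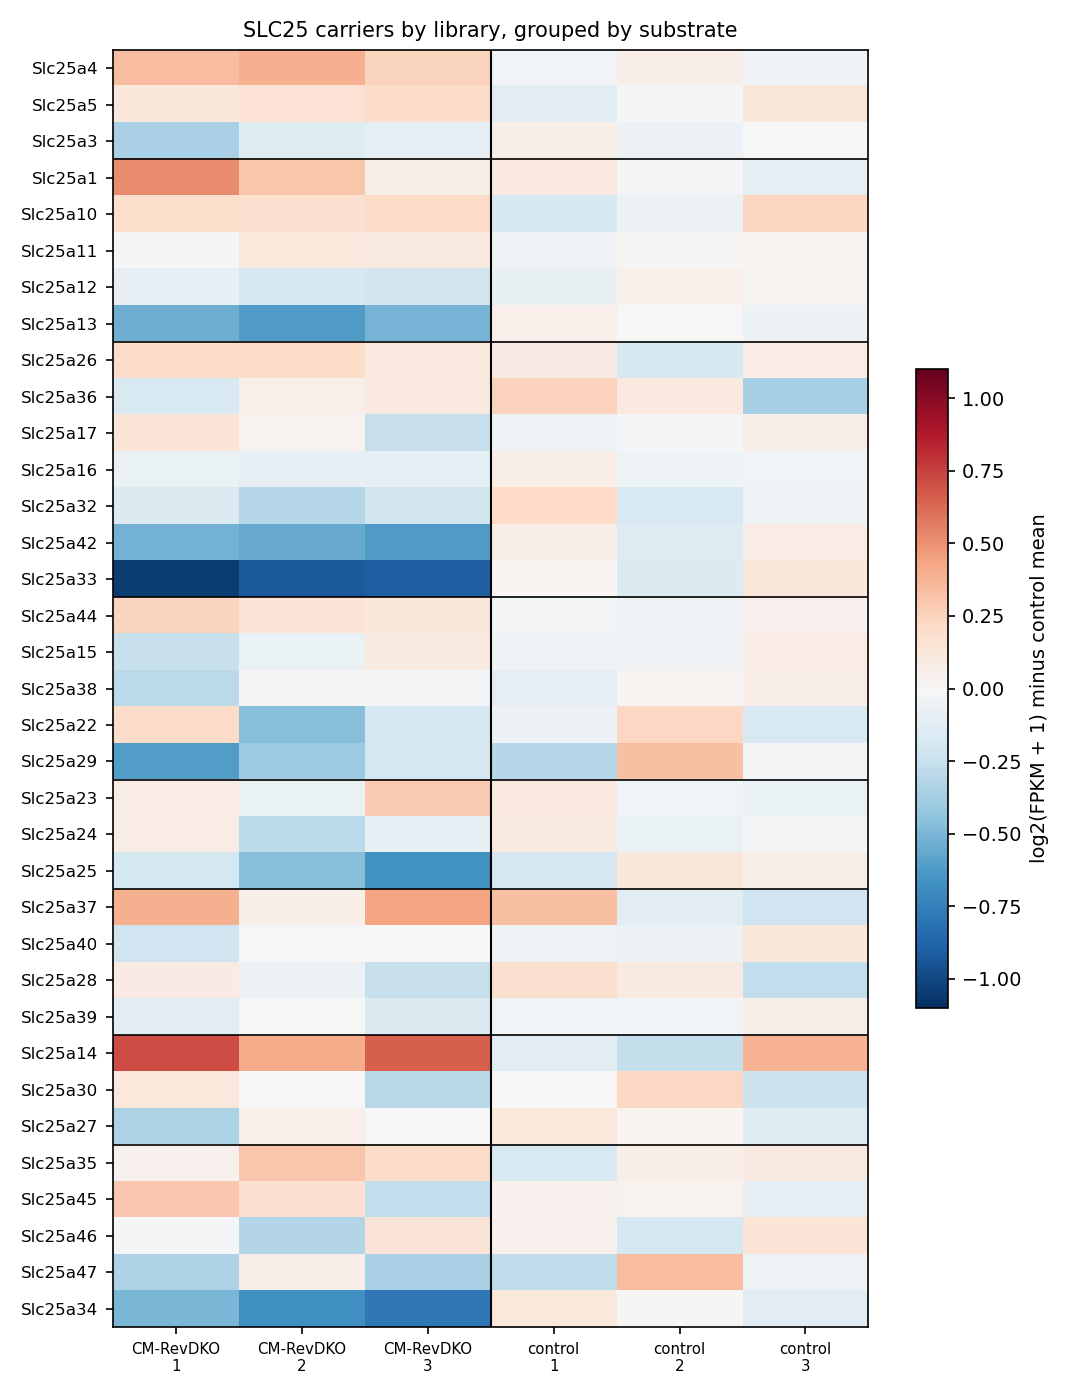
Log2(FPKM + 1) of 35 of the 36 carriers minus the control mean, by library, CM-RevDKO at left of the black line and control at right, with black lines between substrate groups. Slc25a33, Slc25a34, Slc25a42 and Slc25a13 are blue in all 3 CM-RevDKO columns, and Slc25a4 and Slc25a14 are red in all 3.

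Carriers reach the inner membrane through the outer membrane translocase, small chaperones of the intermembrane space and the TIM22 complex. None of 15 tested genes of this import route passed the test. Of these, 13 had positive log2 fold changes, with a median of 0.18. The groups did not overlap, in the higher direction, for 7 of them, against 12.6% of all genes. Timm8b, an intermembrane space chaperone, had the smallest p, at 184, 169 and 160.0 FPKM in CM-RevDKO libraries and 127, 139 and 131 FPKM in controls (log2 fold change 0.37, SE 0.09, adjusted p = 0.0915). Timm22, the channel itself, averaged 5.97 FPKM in CM-RevDKO libraries and 4.62 FPKM in controls (adjusted p = 0.619) and was chosen for its role after its values were seen. Its values were 4.83, 4.26 and 8.82 FPKM in CM-RevDKO libraries and 4.65, 4.49 and 4.71 FPKM in controls. The groups overlapped, and the higher mean rests on CM-RevDKO replicate 3.

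Of 18 other mitochondrial transporters and channels none passed. Tspo, the outer membrane translocator protein, had the smallest p, at 63.1, 61.5 and 44.0 FPKM in CM-RevDKO libraries and 32.9, 33.0 and 34.7 FPKM in controls (log2 fold change 0.71, SE 0.14, limma adjusted p = 0.0534). All 3 CM-RevDKO values were higher, and without CM-RevDKO replicate 3 the gene passed the test (log2 fold change 0.87, adjusted p = 0.0110). The subunits of the pyruvate carrier, listed as Brp44l (Mpc1) and Brp44 (Mpc2), had opposite signs. Brp44l averaged 111 ± 15.3 FPKM in CM-RevDKO libraries and 78.8 ± 6.81 FPKM in controls (SD, n = 3 each, limma adjusted p = 0.0984). Brp44 averaged 267 ± 8.89 FPKM in CM-RevDKO libraries and 295 ± 16.0 FPKM in controls (SD, n = 3 each, limma adjusted p = 0.438). Both were chosen after their values were seen, and neither passed the test. Of the 18 genes, 3 were higher and 2 lower without overlap, both subunits among them, against 12.6% and 10.5% of all genes. Ppif, with a smaller p than either subunit, averaged 80.0 FPKM in CM-RevDKO libraries and 102 FPKM in controls (limma adjusted p = 0.0851).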

How the data were processed

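Total heart RNA was extracted with TRIZOL and sequenced from NEBNext Ultra II libraries, per the labels' protocols. The submitters' processing notes name HISAT2, StringTie and mm10 without versions; annotation and strand setting were not given in these sources. The authors deposited 1 value per gene and library for 13575 genes, read here as FPKM; the header names no unit, so TPM is possible too. Depth could not be recovered: between libraries at most 4 of 2202 to 2660 genes under 2 FPKM shared a log2 ratio to 4 decimals. The other 24 samples of the series were not analysed here.

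Values were analysed as log2(FPKM + 1), which understates changes of low genes. Genes averaging 0.5 or more, 13256 in all, entered a limma fit (version 3.58.1, R 4.3.3). It used lmFit, then trended eBayes, group only, two-sided, with Benjamini-Hochberg adjustment over all genes. The procedure was tried on simulated data whose planted log2 changes were all larger than those of the carriers called here. Its recovery of changes of their size was not tested. The members and gene lists were chosen with earlier results of these data known. Named in full were members past the test, the 10 highest and the 10 with the smallest p; of each list, members past the test or the smallest p. Coordinates are from RefSeq GRCm38.p6, matched by symbol for all 36 members, and promoters from the same build for 28. One carrier entered every fit and count but is not reported here by name.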

Additional observations from a re-analysis of the deposited data

How the results depend on the processing

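Of the 17 alternatives, those that changed pseudocount, low-value filter or scaling kept the 4 calls among the carriers. The count of carriers called was 2 with eBayes without a trend (Slc25a33 and Slc25a13), 1 with control replicate 2 and CM-RevDKO replicate 1 left out together, and 0 both with CM-RevDKO replicate 3 alone and with the atrial covariate. Under those last 3 settings the count over all genes was 105, 21 and 50, against 332. Leaving out single libraries gave 1 to 3 carriers and 120 to 322 genes. Such fits hold fewer samples, and for the other settings the cause was not tested. The carriers' median log2 fold change, -0.07, was -0.13 when rescaled without mitochondrially encoded genes, -0.031 with the 2 libraries left out together and -0.038 with the atrial covariate. Of the pathway lists 1 gene, Pank1, was called; the count was 2, with Tspo added, when only genes averaging 5 FPKM or more were tested, 0 with the 2 libraries left out, with CM-RevDKO replicate 3 alone or with the atrial covariate, and 0 to 1 without single libraries, the 1 being Tspo without CM-RevDKO replicate 3. Slc25a11 changed sign, at -0.0160 with quantile normalization and -0.00298 when rescaled without mitochondrially encoded genes. Of 21 carriers not given by library, 13 changed sign somewhere, all with a main log2 fold change of at most 0.21 in size, and none was called.

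With the replicate number as a block, 115 genes and 1 carrier, Slc25a33, were called (adjusted p of 0.0535 for Slc25a34, 0.0855 for Slc25a13 and 0.1003 for Slc25a42), and of the lists Ucp3 in place of Pank1 (adjusted p of 0.0263 and 0.0770). Deviations of same-numbered libraries correlated at -0.04, -0.06 and 0.09, and CM-RevDKO replicate 1 correlated best with control replicate 2, so the numbers were not read as a pairing. Depth is unknown and limits what low carriers can show.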
